A study of Homo sapiens with 6 samples.

Results

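The genes of haem breakdown and iron handling were followed in THP1, a cell line of monocytic acute myeloid leukaemia grown in serum-containing medium, across 6 arrays. For 3 samples the cells spent 48 hours on a surface carrying Dll4-Fc, a fusion of the Notch ligand Delta-like 4 with an immunoglobulin Fc region, and 3 samples were untreated. The sample labels give the coating as 60 nM and the treatment protocol as 30 nM, so the dose is not settled, and the control is called untreated in one place and vehicle in the other. No well coated with Fc alone was analysed here, both groups are 1 cell line, and nothing states that the samples of a group are separate cultures: p-values here measure only the spread between samples, possibly a technical one. The set comprised every probe set that the U133 Plus 2.0 annotation assigns to exactly 1 of 10 gene symbols: HMOX1, HMOX2, BLVRA, BLVRB, FTH1, FTL, SLC40A1, SLC11A1, TFRC and NCOA4. It held 25 of the 54675 probe sets and 9 of the 19775 genes measured. FTH1 was not analysed here.

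Macrophages take in haem from ageing red cells. Haem oxygenase opens the haem ring, which gives biliverdin, carbon monoxide and iron. Biliverdin reductases turn biliverdin into bilirubin. The iron is stored in ferritin, returned to the blood through the exporter ferroportin, or moved out of endosomes and phagosomes by metal transporters, while the transferrin receptor brings new iron in. Cytosolic iron is sensed by the iron regulatory proteins IRP1 and IRP2, which bind RNA hairpins called iron-responsive elements: when iron is scarce they block translation of ferritin and ferroportin messages and stabilise that of the transferrin receptor.

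Across genes, which are not independent replicates, Pearson r was 0.981 to 0.985 between a Dll4-Fc and an untreated array and 0.997 to 0.999 between arrays of the same treatment. The 3' minus 5' log2 signal of the control probe sets averaged 0.67 ± 0.03 in Dll4-Fc arrays and 0.72 ± 0.05 in untreated arrays for ACTB (SD, n = 3 each, exact permutation p = 0.2), and 0.39 ± 0.01 in Dll4-Fc arrays and 0.38 ± 0.01 in untreated arrays for GAPDH (exact permutation p = 0.9, 2-sided). With 3 arrays against 3, no exact p can fall below 0.1. Of 8 monocytic and myeloid marker genes measured, 7 lay above the median probe set signal of 5.70 in Dll4-Fc arrays and 6 in untreated arrays, and their summed intensity was 21453 to 23653 in Dll4-Fc arrays and 9179 to 9738 in untreated arrays. Of these markers 5 passed as higher (LYZ, ITGAM, CD14, CSF1R and SPI1) and 2 as lower (MPO and CEBPA), so the haem and iron genes were read in cells whose myeloid markers also differed; the part of this in the results below was not tested. Of 6 erythroid markers 0 passed in either direction, and their summed intensity was 261 to 285 in Dll4-Fc arrays and 285 to 304 in untreated arrays. Of 6 lymphoid markers 0 passed, with sums of 326 to 355 in Dll4-Fc arrays and 327 to 349 in untreated arrays, and of 8 epithelial and stromal markers 1 passed, the adhesion gene PECAM1, which leukocytes also express, with list sums of 5292 to 5494 in Dll4-Fc arrays and 3678 to 3984 in untreated arrays. These are signals of bulk RNA, in which more cells of a kind and more RNA per cell cannot be told apart.

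In THP1 cells on Dll4-Fc, 7 of the 9 measured genes had a higher signal and 0 a lower one at an adjusted p under 0.05 (limma, Benjamini-Hochberg adjustment over all genes), where 11.6% of all genes passed as higher and 15% as lower. SLC40A1 and NCOA4 did not pass. The members were chosen with earlier results of these data known, so these counts are a description and not an independent test. Each of the 9 genes had a mean signal above the median probe set signal. Without dim probe sets 7 of the 9 were higher and 1 lower, beside 18.2% and 25.6% of all genes then tested. The fold was 30.8 for HMOX1, 2.86 for SLC11A1 and 2.20 for BLVRB, and between 1.17 and 1.31 for the other 4 that rose. The 3 Dll4-Fc arrays and the 3 untreated arrays did not overlap for 8 of the 9 genes and 17 of the 25 probe sets, where this held for 41.6% of all genes and 33.2% of all probe sets. The median log2 difference was 0.31 over the 9 genes and -0.01 over all genes. Each gene is represented below by its probe set with the highest mean signal, a difference is the Dll4-Fc mean minus the untreated mean of log2 signals, and ± after a difference is its standard error with n = 3 arrays per group.

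**Figure D1:**
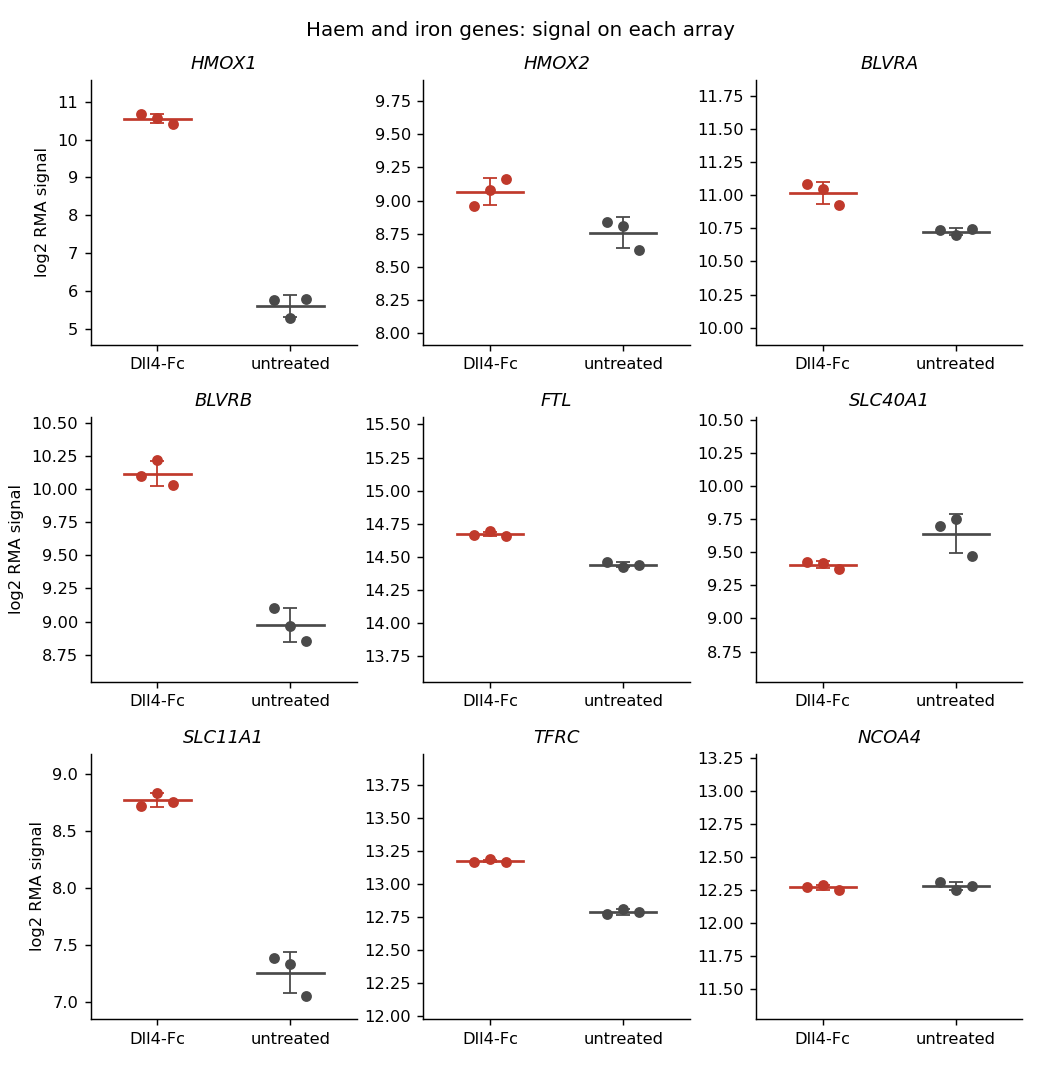
Log2 RMA signal of the 9 member genes on each array, with Dll4-Fc arrays on the left and untreated arrays on the right of each panel; points are arrays, horizontal lines are group means and error bars are SD (n = 3), and each panel has its own scale, which does not start at 0. HMOX1 averaged 10.55 in Dll4-Fc arrays and 5.61 in untreated arrays, while NCOA4 averaged 12.27 in Dll4-Fc arrays and 12.28 in untreated arrays.

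HMOX1 encodes haem oxygenase 1, the inducible enzyme that opens haem, known to be raised by haem, oxidants and many stress signals. Its 1 probe set (203665_at) read 10.66, 10.58 and 10.42 in the 3 Dll4-Fc arrays, against 5.76, 5.28 and 5.79 in the untreated arrays. The groups lay far apart, and the lowest Dll4-Fc array stood well above the highest untreated one. The difference was 4.95 ± 0.14, or 30.8-fold (95% interval 24.5 to 38.8, adjusted p = 6.69e-07), and it ranked 26th of the 19775 genes from the largest rise downward. On the deposited linear scale the signal was 1368 to 1623 in Dll4-Fc arrays and 38.7 to 55.3 in untreated arrays. The untreated mean of 5.61 was below the median probe set signal, so the fold is uncertain in size. Leaving out any 1 array gave differences of 4.78 to 5.04.

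HMOX2 encodes haem oxygenase 2, the constitutive enzyme of the same reaction. Its brighter probe set (218120_s_at) read 8.96, 9.08 and 9.16 in Dll4-Fc arrays, against 8.84, 8.80 and 8.62 in untreated arrays, without overlap. The difference was 0.31 ± 0.08, or 1.24-fold (adjusted p = 0.0271). The gene-level call rested on few arrays: it was kept when Dll4-Fc replicate 1 or untreated replicate 1 was left out and lost when any of the other 4 was, with an adjusted p up to 0.0818. It was also lost with the replicate number as a block (adjusted p = 0.0770). Adjusted over all probe sets, this probe set passed in 0 of the 6 fits that left out 1 array (adjusted p 0.0584 to 0.132). The other probe set (218121_at), the only one not marked as shared between transcripts, gave 0.14 and did not pass (adjusted p = 0.322 over all probe sets), and the mean of the probe sets gave 0.23 (adjusted p = 0.0583). The 2 enzymes were also compared within arrays, which follows from their 2 differences and is not a further independent result. The within-array difference of HMOX1 minus HMOX2, centred over the 6 arrays, was 2.54, 2.33 and 2.09 in Dll4-Fc arrays and -2.25, -2.70 and -2.00 in untreated arrays, a gap of 4.63 (exact permutation p = 0.1, the smallest that 3 against 3 allows, and 0.1 after adjustment over 4 pairs).

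BLVRB encodes biliverdin reductase B, which also acts as a flavin reductase and prefers fetal forms of biliverdin. Its 1 probe set (202201_at) read 10.10, 10.22 and 10.03 in Dll4-Fc arrays, against 9.10, 8.97 and 8.85 in untreated arrays. All 3 Dll4-Fc arrays were above all untreated ones, and the gap between the groups exceeded the spread within either. The rise was 1.14 ± 0.08, or 2.20-fold (95% interval 1.93 to 2.52, adjusted p = 6.99e-05), and it passed whichever array was left out. The promoter of BLVRB is shown, together with that of SLC11A1, because these are the genes with a RefSeq promoter entry that rose at least 2-fold. RefSeq (GRCh38.p14) gives the 250 bases before the start on the minus strand of chr19:40465746-40465995, where capitals mark the GC box core CCGCCC on either strand, the binding sequence of SP1-type factors, at 6 places.
BLVRB promoter: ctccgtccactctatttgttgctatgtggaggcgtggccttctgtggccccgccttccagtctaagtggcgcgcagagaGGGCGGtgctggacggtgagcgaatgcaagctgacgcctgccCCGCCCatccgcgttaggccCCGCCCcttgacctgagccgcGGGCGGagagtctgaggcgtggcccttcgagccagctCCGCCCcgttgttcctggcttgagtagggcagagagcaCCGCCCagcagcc

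BLVRA encodes biliverdin reductase A, the main enzyme that makes bilirubin in adults. Its brightest probe set (211729_x_at) read 11.08, 11.04 and 10.93 in Dll4-Fc arrays, against 10.74, 10.70 and 10.74 in untreated arrays. The groups did not overlap, but the step was small: 0.29 ± 0.06, or 1.22-fold (adjusted p = 0.0104). Of its 5 probe sets 3 passed as higher, by 0.29 to 0.31, and the 2 dimmest, at mean signals below the median, gave 0.21 and 0.13 and did not pass. The only probe set not marked as shared was one of those dim ones (203772_at, adjusted p = 0.416 at the gene level), so the rise of BLVRA rests on shared probe sets. The centred within-array difference of BLVRA minus BLVRB was -0.34, -0.50 and -0.43 in Dll4-Fc arrays and 0.31, 0.40 and 0.56 in untreated arrays, a gap of -0.85 (exact permutation p = 0.1). This gap too follows from the differences of its 2 genes.

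**Figure D2:**
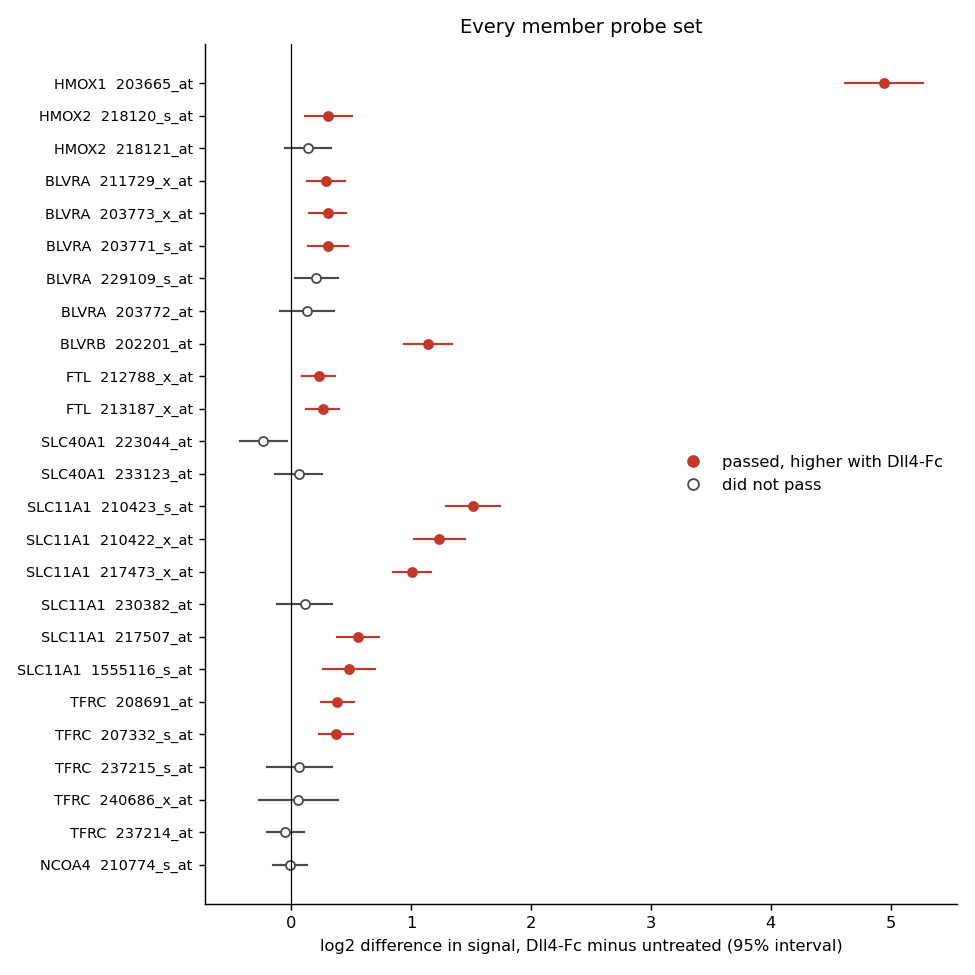
Log2 difference of each of the 25 member probe sets, Dll4-Fc minus untreated, with its 95% interval from limma; filled red points passed at an adjusted p under 0.05 over 54613 probe sets and open points did not. HMOX1 stands alone at 4.95, the 3 brightest SLC11A1 probe sets lie between 1.01 and 1.51, and most others lie between 0 and 0.56.

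At the level of single probe sets, 15 of the 25 passed as higher and 0 as lower, against 7.21% higher and 9.26% lower among all 54613 tested. The count of 15 moved with single arrays: it was 8 without Dll4-Fc replicate 1 and 9 without Dll4-Fc replicate 2 or untreated replicate 2, and the probe sets lost there were those of HMOX2, BLVRA and FTL and, without Dll4-Fc replicate 1, a dim SLC11A1 one. HMOX1, BLVRB, the 3 brightest SLC11A1 and the brightest 2 TFRC probe sets, with the dim 217507_at of SLC11A1, passed whichever array was left out.

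FTL encodes the ferritin light chain, which with the heavy chain forms the shell that stores iron. Its brighter probe set (212788_x_at) read 14.66, 14.69 and 14.66 in Dll4-Fc arrays, against 14.46, 14.42 and 14.44 in untreated arrays. The arrays of a group nearly coincided and the groups did not overlap. The difference was 0.23 ± 0.05, or 1.17-fold (adjusted p = 0.0120), and the other probe set (213187_x_at) gave 0.26 (adjusted p = 0.0195 over all probe sets). The gene-level call was lost without Dll4-Fc replicate 2 (adjusted p = 0.0517) or untreated replicate 2 (0.0529), and with the replicate number as a block (0.0617). Adjusted over all probe sets, 212788_x_at passed in 0 of the 6 fits that left out 1 array (adjusted p 0.0518 to 0.117). Both probe sets carry the suffix for possible cross-hybridisation, ferritin genes have many processed pseudogene copies, and the signal was brighter than that of 99.96% of probe sets, near the top of the scale; the part of these in the size of the difference was not tested. The iron-responsive element of FTL is shown because it is the sequence through which iron acts on this message, at the step of translation, which arrays do not measure. Its loop, CAGTGN in capitals, begins at base 39 counted from the RefSeq start, and the bases shown lie at chr19:48965335-48965358 on the plus strand (GRCh38.p14).
FTL iron-responsive element, loop and flanks: ctcttgcttcaaCAGTGTttggac

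NCOA4 encodes the receptor that carries ferritin to the lysosome, where its iron is released. Its 1 probe set (210774_s_at) read 12.27, 12.29 and 12.25 in Dll4-Fc arrays, against 12.31, 12.25 and 12.28 in untreated arrays. The groups overlapped fully, with a difference of -0.01 ± 0.05 (95% interval -0.13 to 0.11, adjusted p = 0.921). Its bounds correspond to 0.916-fold and 1.08-fold.

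SLC11A1, also called NRAMP1, encodes a metal transporter of late endosomes and phagosomes in macrophages, known for its part in resistance to intracellular microbes. Its brightest probe set (210423_s_at) read 8.73, 8.84 and 8.75 in Dll4-Fc arrays, against 7.39, 7.33 and 7.05 in untreated arrays. Every Dll4-Fc array was above every untreated array by more than the spread within a group. The rise was 1.51 ± 0.09, or 2.86-fold (95% interval 2.45 to 3.33, adjusted p = 3.38e-05). Of its 6 probe sets 5 passed as higher. Probe sets 210422_x_at and 217473_x_at gave 1.24 and 1.01, the dim 217507_at and 1555116_s_at gave 0.56 and 0.48, and 230382_at gave 0.12 (adjusted p = 0.534). The last 1 is the brighter of the probe sets not marked as shared, so without shared probe sets the gene did not pass (0.12, adjusted p = 0.492), whereas the other unshared one, 217507_at, did at the probe set level (adjusted p = 0.00196). The SLC11A1 promoter, the 250 bases before the RefSeq start on the plus strand of chr2:218382023-218382272 (GRCh38.p14), holds a GT repeat, given in capitals.
SLC11A1 promoter: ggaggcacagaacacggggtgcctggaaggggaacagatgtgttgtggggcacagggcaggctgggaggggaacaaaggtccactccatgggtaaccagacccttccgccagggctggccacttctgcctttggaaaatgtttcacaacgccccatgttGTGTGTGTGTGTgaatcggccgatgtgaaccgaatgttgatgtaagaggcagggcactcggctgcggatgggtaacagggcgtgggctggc

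SLC40A1 encodes ferroportin, the exporter of iron from cells. Its brighter probe set (223044_at) read 9.42, 9.42 and 9.37 in Dll4-Fc arrays, against 9.70, 9.75 and 9.47 in untreated arrays. The Dll4-Fc arrays were lower without overlap, while untreated replicate 3 lay close to them. The difference of -0.23 ± 0.08 (95% interval -0.42 to -0.05) did not pass (adjusted p = 0.0714), and the other probe set (233123_at) gave 0.06 (adjusted p = 0.727). Without untreated replicate 3 the difference was -0.32 and passed (adjusted p = 0.00746). It also passed when arrays were weighted (0.00804), when the variance prior was trended and robust (0.0185) or when dim genes were dropped (0.0437), and the range over all alternatives ran up to an adjusted p of 0.344 for the mean of the probe sets.

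TFRC encodes transferrin receptor 1, through which cells take up iron bound to transferrin. Its brightest probe set (208691_at) read 13.17, 13.19 and 13.17 in Dll4-Fc arrays, against 12.77, 12.81 and 12.79 in untreated arrays. The arrays of a group nearly coincided and the groups stood apart, so that a rise of 0.38 ± 0.05, or 1.31-fold, passed (adjusted p = 0.00113), whichever array was left out. The next probe set (207332_s_at) gave 0.38 as well (adjusted p = 0.0043). The other 3 probe sets gave 0.07, 0.06 and -0.05 and did not pass, and the mean over all 5 gave 0.17 (adjusted p = 0.043).

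Among the transporters, the importer TFRC and the exporter SLC40A1 were also set against each other within arrays. The centred difference of TFRC minus SLC40A1 was 0.29, 0.31 and 0.33 in Dll4-Fc arrays and -0.38, -0.40 and -0.14 in untreated arrays, a gap of 0.62, and that of SLC40A1 minus SLC11A1 had a gap of -1.75 (exact permutation p = 0.1 each). All 4 pairs compared separated the groups fully, at the smallest p the design allows. Each gap follows from the differences already given for its genes, so the pairs are not further independent results. The share of all gene pairs that separate in this way was not computed. Averaging all probe sets of a gene left gaps of 0.25 and -0.91 for these pairs, and leaving out shared probe sets gave -0.35 for SLC40A1 minus SLC11A1. Pairs with FTH1 were not analysed here.

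**Figure D3:**
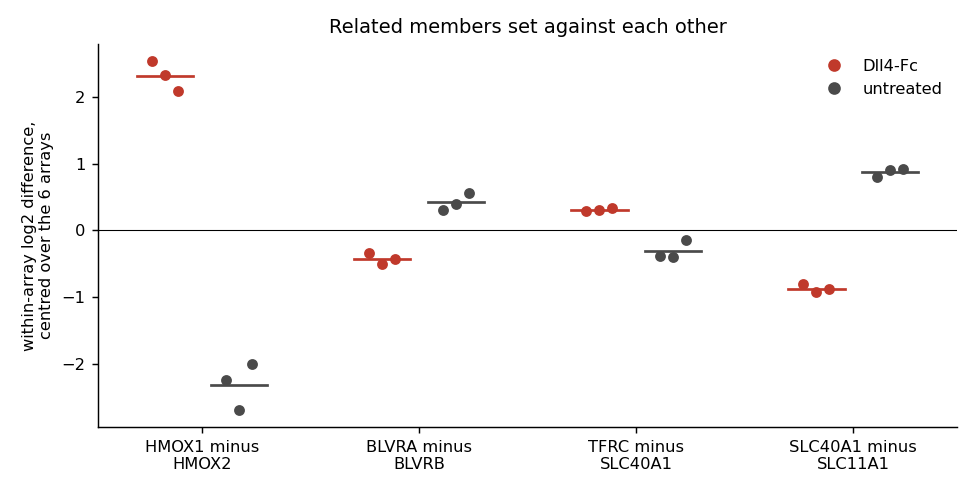
Within-array log2 difference between related members, centred over the 6 arrays so that the level of a probe set does not enter; red points are Dll4-Fc arrays, grey points untreated arrays and lines group means (n = 3). The gap between the groups is 4.63 for HMOX1 minus HMOX2, -0.85 for BLVRA minus BLVRB, 0.62 for TFRC minus SLC40A1 and -1.75 for SLC40A1 minus SLC11A1.

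The RefSeq windows of 250 bases before to 50 after the start were available for 8 member genes, as 10 promoters; HMOX1 and FTH1 had none. On both strands, the antioxidant response element core TGACNNNGC, the sequence bound by NRF2, was in 1 of the 10, that of NCOA4, against 13.3% of all 35116 promoters. Its AP-1-like form TGANTCAGC, also bound by BACH1, was in 0 (1.36% of all), the RBPJ core GTGGGAA, bound by the DNA-binding partner of Notch, in 0 (6.25%) and the interferon-stimulated response element core (GAAA, any 2 bases, then GAAA) in 0 (3.57%). On the sense strand after the start, the loop CAGTGN was in 3 of the 10, those of FTL, SLC11A1 and NCOA4 (6.36% of all), and with the unpaired C of the known element before it, CNNNNNCAGTGN, in FTL alone (1.67%); the NCOA4 loop overlaps the antioxidant response element match. The GC box core was before the start in 7 of the 10 (42.6% of all promoters) and a run of 5 GT units in 1, that of SLC11A1 (0.894%). A match is a description of letters in this window.

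The other genes of haem and iron handling moved in both directions. Of 55 measured genes in 7 lists, 14 were higher and 8 lower, which is 25.5% and 14.5%, beside 11.6% and 15% of all genes. Their median difference was 0.04. These lists too were chosen with earlier results of these data known, so the counts are not an independent test. Without dim probe sets 14 of 46 list genes were higher and 11 lower (30.4% and 23.9%), beside 18.2% and 25.6% of all genes then tested. Cyclic loess normalization gave 18 higher and 6 lower (32.7% and 10.9%), beside 14.5% and 12.5% of all genes under that setting. Without Dll4-Fc replicate 1 the counts were 10 higher and 4 lower (18.2% and 7.27%, beside 9.08% and 9.36% of all genes), without Dll4-Fc replicate 2 they were 10 and 5 (beside 9.21% and 10.1%), and without shared probe sets 6 of 43 genes were higher and 6 lower (14% each, beside 9.36% and 13.2%). Of 7 haem synthesis genes ALAS1, the enzyme of the rate-limiting first step, was the 1 that rose: its signal was 10.68, 10.70 and 10.61 in Dll4-Fc arrays, against 9.49, 9.40 and 9.28 in untreated arrays, a difference of 1.27 ± 0.07 or 2.42-fold (adjusted p = 1.48e-05). ALAS1 was measured by a shared probe set only. PPOX, the enzyme before the last step, was the 1 that fell (-0.46, adjusted p = 0.0144), a call lost without Dll4-Fc replicate 1 (adjusted p = 0.0599) or Dll4-Fc replicate 2 (0.0519). The other 5 did not pass.

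Of 14 genes of haem uptake, transport and regulation 6 rose and 1 fell (42.9% and 7.14%, beside 11.6% and 15% of all genes). MAFF, a small MAF protein that pairs with NRF2 and BACH1 on DNA, read 8.57, 8.51 and 8.43 in Dll4-Fc arrays, against 5.59, 5.49 and 5.31 in untreated arrays. This was the largest difference of the 55 genes, 3.04 ± 0.08 or 8.22-fold (adjusted p = 5.47e-07), from an untreated mean below the median probe set signal, and the mean of its probe sets gave 1.87. CD163, the macrophage receptor for haptoglobin with haemoglobin, read 6.50, 6.21 and 5.97 in Dll4-Fc arrays and 4.99, 5.06 and 4.59 in untreated arrays, a rise of 1.35 ± 0.16 (adjusted p = 0.000926). That rise came from a dim shared probe set. Without shared probe sets the difference was 0.26 (adjusted p = 0.0532), and the mean of all its probe sets gave 1.13 (adjusted p = 7.52e-05). HP, haptoglobin itself, rose by 0.62 ± 0.13 (adjusted p = 0.0111), and FLVCR2 and SLC46A1, both described as haem carriers, by 0.46 and 0.29. HP was measured by a shared probe set only. The call of FLVCR2 was lost without any 1 of the 3 Dll4-Fc arrays (adjusted p up to 0.0813) and without shared probe sets (0.03, adjusted p = 0.798), and that of SLC46A1 with the mean of its probe sets (0.06, adjusted p = 0.503). NFE2L2, which encodes NRF2, the activator of HMOX1 transcription in oxidative stress, rose by 0.23 ± 0.05 (1.17-fold, adjusted p = 0.0139), a call lost without Dll4-Fc replicate 1 (adjusted p = 0.0507), Dll4-Fc replicate 2 (0.0546) or untreated replicate 2 (0.0569). KEAP1, which marks NRF2 for degradation, fell by 0.35 (adjusted p = 0.0037). BACH1, the haem-sensing repressor of HMOX1, differed by 0.12 ± 0.06 (adjusted p = 0.187), and passed under cyclic loess (0.19, adjusted p = 0.0414).

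Of 10 genes of iron uptake and reduction 4 rose and 2 fell (40% and 20%, beside 11.6% and 15% of all genes). SLC11A2, also called DMT1, which carries iron across the endosomal membrane after transferrin uptake, rose by 1.18 ± 0.08 or 2.26-fold (adjusted p = 4.27e-05), and by 0.25 without shared probe sets (adjusted p = 0.0267). MCOLN1, a lysosomal cation channel, rose by 0.46 and the ferrireductase STEAP3 by 0.42, both measured by shared probe sets only. The zinc and iron importer SLC39A14 rose by 0.27. That call was lost without Dll4-Fc replicate 1 or 2 (adjusted p up to 0.0538) and with the mean of its probe sets (0.18, adjusted p = 0.0656). SLC39A8, its relative, fell by 0.62 ± 0.08 (adjusted p = 0.00119) and TFR2, the second transferrin receptor, by 0.58 ± 0.09 (adjusted p = 0.00299); as the mean of their probe sets they differed by -0.26 and -0.30. SLC39A8 was measured by shared probe sets only. Of 8 genes of iron export, oxidation and the hepcidin axis 1 rose and 1 fell. These are 12.5% each, near the 11.6% and 15% of all genes. ERFE, which encodes the hepcidin suppressor erythroferrone, rose (0.18) and BMP2, a ligand that induces hepcidin, fell (-0.44). For each gene the call was lost on leaving out any of 5 of the 6 arrays (adjusted p up to 0.160 for ERFE and 0.104 for BMP2). The hepcidin gene HAMP itself differed by 0.22 ± 0.20 (adjusted p = 0.489).

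Of 6 measured genes of iron sensing and ferritin turnover 0 rose and 1 fell (0% and 16.7%, beside 11.6% and 15% of all genes). The gene that fell encodes the autophagy receptor TAX1BP1 (-0.26, adjusted p = 0.0154). Its call was lost without Dll4-Fc replicate 1 (adjusted p = 0.0673) and without shared probe sets (0.350). ACO1, which encodes IRP1, differed by -0.03 ± 0.07 (adjusted p = 0.791), and IREB2, which encodes IRP2, was not analysed here. Of 8 genes of mitochondrial iron and iron-sulfur clusters 2 rose and 2 fell (25% each, beside the same shares of all genes). Those that rose were SLC25A28 (0.45) and the mitochondrial transporter gene ABCB10 (0.36), the latter measured by shared probe sets only. SLC25A37 (-0.35) and the cluster assembly gene ISCA2 (-0.24) fell. SLC25A28 and SLC25A37 encode the mitoferrins, which bring iron into mitochondria. SLC25A28 passed whichever array was left out, whereas the call of SLC25A37 was lost without Dll4-Fc replicate 1, Dll4-Fc replicate 2, untreated replicate 2 or untreated replicate 3 (adjusted p up to 0.0849) and under cyclic loess (0.0626). The secreted iron-binding proteins LCN2 and LTF did not pass (0.04 and -0.08).

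**Figure D4:**
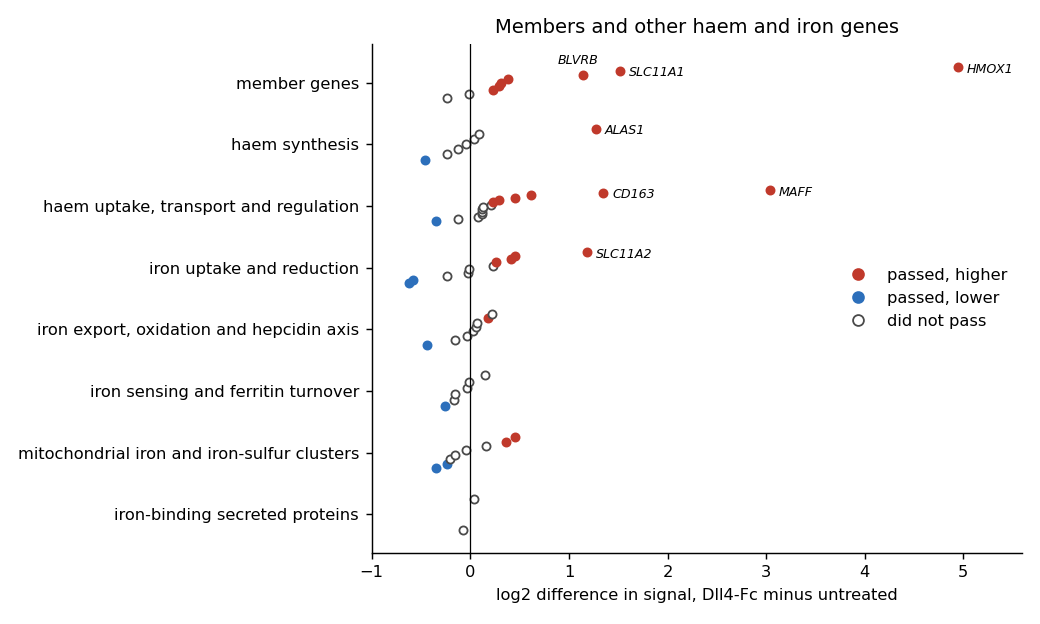
Log2 difference of each member gene and of 55 other haem and iron genes in 7 lists, Dll4-Fc minus untreated; red points passed as higher, blue points as lower and open points did not pass, and genes that differed by at least 1 are named. HMOX1 at 4.95 and MAFF at 3.04 lie beyond all others, and 0 of the falls reaches 1.

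The genes whose pattern over the 6 arrays was closest to HMOX1, by the root mean square distance of centred log2 signals, were RIN2 (0.17), MERTK (0.20) and VCAN (0.23), which differed by 4.92, 4.60 and 4.98. For SLC40A1, the member with the largest negative difference, they were MPI (0.01), PIK3R3 (0.02) and CYBRD1 (0.02), a ferric reductase of the uptake list, none of which passed (differences -0.24, -0.23 and -0.24). With arrays in 2 groups, this likeness mostly states that the step between the groups had a similar height.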

How the data were processed

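RNA of 6 THP1 samples (5 ng each) was amplified, labelled with biotin and hybridised to 1 U133 Plus 2.0 array each, per the labels' protocols. The deposited table gives an intensity for each probe set on each array, linear and not log2, made by the authors with RMA (background correction, normalization and probe set summary), as the submitters' processing notes name it, with no version given in the sources used here. RMA shrinks differences of dim probe sets, and normalization hides a change in total RNA per cell. Precision is limited by the number of arrays, with a median standard error of 0.075 for a gene difference. Intensities ran from 5.87 to 28188, array medians from 50.6 to 52.7, and nothing was floored.

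Here the values were log2 transformed and 62 control probe sets left out. Of the others, 41091 had exactly 1 symbol; symbols were updated by Entrez number from RefSeq (GRCh38.p14, names only). limma 3.58.1 in R 4.3.3 (lmFit, eBayes, 2-sided, 4 residual degrees of freedom) compared Dll4-Fc with untreated over 54613 probe sets and over 19775 genes, with Benjamini-Hochberg adjustment over each table and a threshold of 0.05. Differences within arrays were tested by exact permutation over arrays, and the limma step was tested on simulated data. Named genes are all members, list genes that passed with an absolute difference of at least 0.5 (at most 4 per list) and 6 fixed by name, BACH1, NFE2L2, SLC11A2, IREB2, ACO1 and CD163; other list genes, named to spell out small counts, and HAMP, LCN2 and LTF were chosen after their values were seen, as were the GC box, the GT repeat and the unpaired C. The members and lists were chosen with earlier results of these data known. Of 61 list genes 6 were not analysed here.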

Additional observations from a re-analysis of the deposited data

How the results depend on the processing

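The replicate number as a block, cyclic loess, median centring, leaving out dim probe sets, a trended robust prior, array weights, the mean of all probe sets, leaving out shared probe sets and leaving out each array in turn were tried, and 0 results reversed direction with a call. The rises of HMOX1, BLVRB and TFRC passed under each alternative run for them. Same-numbered arrays did not deviate together (correlations of 0.01, -0.21 and -0.15). Deviations from a mean of 3 arrays constrain each other, so these values cannot settle whether the numbers pair the arrays. The replicate block left 9 of the 25 member probe sets higher, where 15 were higher without it. Of the 9 member genes it left 5 higher, where 7 were higher without it. Of all genes 9.25% were higher and 10.4% lower with the block, against 11.6% and 15% without it. Without shared probe sets 3 of 7 measured member genes and 6 of 43 other haem and iron genes were higher, beside 9.36% of all genes then tested; these sets are smaller because some genes lose all their probe sets. A call of 1 lower member, SLC40A1, appeared among probe sets and genes when arrays were weighted or the prior was trended and robust, and among genes without dim ones. With the prior or the weights 13 of the 55 other genes (23.6%) were lower, in place of 8 (14.5%). The share of all genes called lower also rose, from 15% to 18.2% with the prior and 20.9% with the weights. Leaving out each array gave 8 to 13 higher and 0 to 1 lower member probe sets. Of the member genes 5 to 7 were higher and 0 to 1 lower. Of the other genes 10 to 14 were higher and 4 to 10 lower, with 4 lower without Dll4-Fc replicate 1 and 5 without Dll4-Fc replicate 2. Beside these gene counts, 9.08% to 11.5% of all genes were higher and 9.36% to 16.1% lower. The share of all probe sets called under these settings is not given here. Within-array gaps moved to 0.25 (TFRC minus SLC40A1) and -0.91 (SLC40A1 minus SLC11A1) with the mean of probe sets, and to -1.01 (BLVRA minus BLVRB) and -0.35 (SLC40A1 minus SLC11A1) without shared ones. Leaving out each array gave gaps of 4.44 to 4.79, -0.91 to -0.78, 0.57 to 0.70 and -1.79 to -1.72 for the 4 pairs in the order given in the report. Within 250 bases before the start the antioxidant response element core was in 0 member promoters, and with the unpaired C, chosen after seeing the data, the iron-responsive element loop was in 1. Over all genes cyclic loess turned the share of calls that were higher to 53.7%, against 43.7% as reported. Dim signals limit the size of the HMOX1 and MAFF folds. The cause of these shifts was not tested.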
